A study of Solanum tuberosum with 12 samples.

Results

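The miR395 family of small RNAs was followed in tubers of 4 potato (Solanum tuberosum) cultivars. Its members were the entries of a small RNA count table whose name holds miR395 not followed by another digit. There were 13 such entries among 7827, and they held 4 distinct sequences among 5730. One sequence stood under 10 names, from stu-miR395a to stu-miR395j, and the other three, miR395-x, miR395-y and miR395-z, each stood under a single name in the style used for families known from other species. The rule itself used names only and no measured value. The study sequenced 12 libraries: 3 each from Black kingkong and Red beauty, and 3 each from the cultivars Longshu No.7 and LK99. All were tubers of an age of 150 days from plants raised in the same field season with the same watering, light and temperature, with no treatment and no control group. Whether a cultivar's libraries came from separate plants is not stated in the labels, and the p-values therefore cover only the library-to-library spread, part or all of which may be technical. Small RNA of 18 to 30 nt was purified by gel before sequencing, and the table holds small RNAs alone, so the tuber label was not checked against messenger RNA markers.

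miR395 is a conserved plant miRNA of sulfur nutrition. In Arabidopsis it guides the cleavage of mRNAs for ATP sulfurylases, which carry out the first step of sulfate assimilation, and of a low-affinity sulfate transporter, and it accumulates when sulfate is short. The assimilated sulfur goes into cysteine, methionine and glutathione. The mRNA targets themselves were not measured here.

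The sequences are shown because names and counts in this family do not map simply onto each other. All are written 5′ to 3′ as DNA letters from the deposited table. Capitals mark bases 2 to 8 of stu-miR395a, its seed, wherever those letters recur, and in miR395-x they mark the reverse complement of that seed.
stu-miR395a: cTGAAGTGtttgggggaactc
miR395-y: cTGAAGTGtttgggggaactt
miR395-z: gcTGAAGTGtttaggggaact
miR395-x: ttctcagagCACTTCAttg

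The 21-nt sequence of stu-miR395a was the main form. With positions counted from the 5′ end of stu-miR395a, miR395-y differed from it by C21T over the whole length. The sequence of miR395-z began 1 base earlier and differed by G12A over an overlap of 20 bases. The 19-nt miR395-x was of another kind: it did not align with stu-miR395a, and it carried CACTTCA at its bases 10 to 16. Searched as given, without its other strand, CACTTCA occurred in 6 of the 5730 distinct sequences (0.105%). The seed letters TGAAGTG stood within the first 10 bases of 5 distinct sequences (0.0873%), and at bases 2 to 8 in only 2, stu-miR395a and miR395-y. Apart from the 3 family members, those 5 included a pair of sequences predicted by the authors. They are shown for comparison, since they share the seed letters and little else.
predicted, 22 nt: taaTGAAGTGgaaagtgatgaa
predicted, 20 nt: tgTGAAGTGggtagagtact

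These predicted sequences had 8 or more mismatches to stu-miR395a in the overlap, and each had 14 counts over the 12 libraries. No entry outside the family aligned with stu-miR395a with 3 or fewer mismatches at a shift of up to 3 bases. Of the 10 stu-miR395 names, 8 had a gene entry in RefSeq's gene table for the assembly SolTub_3.0, with gene lengths of 69 to 75 bases.

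miR395 was a rare miRNA in these tubers. A single entry, miR166-y, held 86.1% to 92.0% of the counts in each library, and the CPM values are per totals that include it. Counting each distinct sequence once, the family had 159 counts in 12 libraries of 5605168 to 7354483 counts each. The sequence of stu-miR395a made up 102 of them (64.2%), miR395-x 41 (25.8%), miR395-y 13 (8.18%) and miR395-z 3 (1.89%). In CPM, counts per 1000000 counts after TMM scaling of the library sizes, the summed family level averaged 3.47 ± 1.20 in Black kingkong tubers and 3.34 ± 0.84 in those of Red beauty, with 0.385 ± 0.341 for Longshu No.7 and 1.20 ± 1.15 for LK99 (SD, n = 3). Single Black kingkong libraries ranged from 2.30 to 4.70 CPM and those of Red beauty from 2.52 to 4.20, while Longshu No.7 spanned 0 to 0.650 and LK99 0 to 2.30. By order of means Black kingkong and Red beauty stood above LK99, and Longshu No.7 was at the bottom. Between neighbours in that order the libraries overlapped, except that the lowest Red beauty library lay above the highest of LK99. That exception holds on the TMM scale only. With library size alone, the lowest Red beauty library had 2.24 CPM and the highest of LK99 3.15.

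Small RNA levels were taken from whole tubers, in which fewer cells with miR395 and less miR395 per cell cannot be told apart. A miRNA with 3 counts in a library reaches 0.362 to 0.650 CPM, and a count of 0 allows a level up to that limit. Poisson intervals, counting intervals of ratios and these limits cover counting error only, because PCR can copy 1 molecule many times, whereas the intervals of log2 fold changes come from the fit and include the spread between libraries.

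The main sequence was higher in Black kingkong and in Red beauty than in Longshu No.7, by about 3 log2 units in each case. Under the name stu-miR395a its differences from LK99 did not pass (edgeR adjusted p = 0.057 for Black kingkong and 0.074 for Red beauty). In Black kingkong stu-miR395a had 14, 21 and 12 counts, or 1.89, 3.09 and 2.06 CPM. Red beauty libraries held 11, 14 and 11 counts, or 1.85, 2.67 and 2.03 CPM. On the TMM scale all 6 of these libraries lay above every library of the other cultivars. With library size alone this held for Black kingkong (lowest 1.78 CPM), but the lowest Red beauty library, at 1.59, fell under the highest of LK99, at 1.66. In Longshu No.7 there were 3, 0 and 1 counts, or 0.379, 0 and 0.217 CPM. LK99 libraries had 10, 5 and 0 counts, or 1.21, 0.728 and 0 CPM, so that 10 of the 15 counts came from 1 library. The 10 counts of LK99 replicate 1 have an exact 95% Poisson interval of 4.80 to 18.4, and the 0 counts of replicate 3 allow up to 3, so those libraries differed by more than counting error at similar depths of 6032622 and 6548428 counts. Black kingkong averaged 2.34 ± 0.65 CPM and Red beauty 2.18 ± 0.43, while Longshu No.7 averaged 0.199 ± 0.190 and LK99 0.646 ± 0.608 (SD, n = 3). Set against the 1349 entries that passed the filter on low counts, stu-miR395a was above 53.6% of entries in Black kingkong and 46.6% in Red beauty, but above 5.04% in Longshu No.7 and 11.2% in LK99. It passed that filter through its Black kingkong and Red beauty libraries, so its lower place in the other cultivars follows in part from the filter. These places are a description and no further evidence of a difference.

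**Figure D1:**
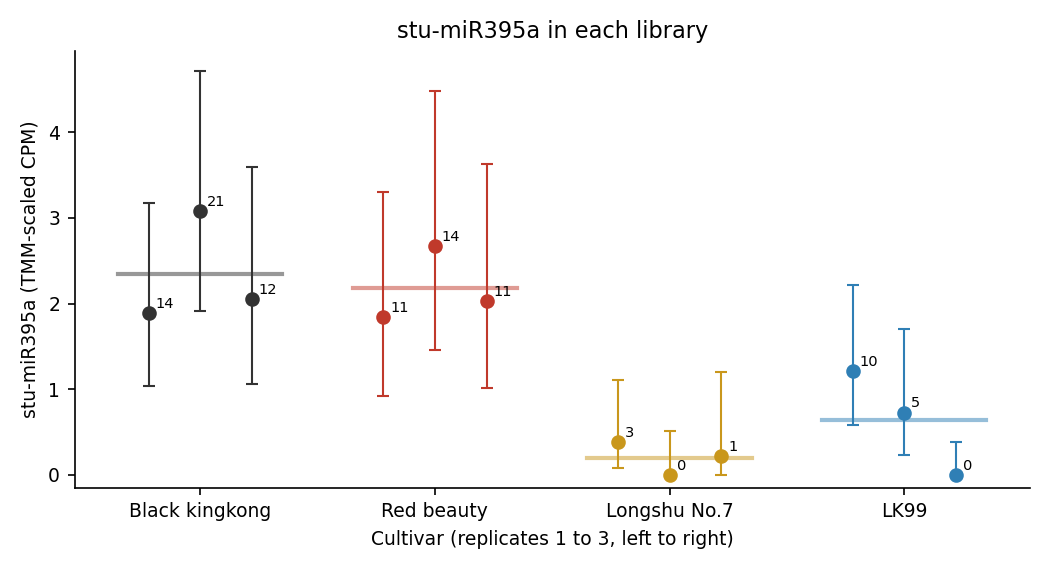
Level of stu-miR395a (TMM-scaled CPM) in each of the 12 libraries, by cultivar. Points are libraries with exact 95% Poisson intervals (for 0 counts, up to the limit of 3 counts), the printed numbers are counts and the bars are cultivar means. On this scale the Black kingkong and Red beauty libraries sit between 1.85 and 3.09 CPM, above all libraries of Longshu No.7 and LK99; with library size alone the Red beauty libraries overlap LK99.

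The first comparison asked whether stu-miR395a differed among any of the cultivars. It did in edgeR's quasi-likelihood F-test (F = 7.27, Benjamini-Hochberg adjusted p = 0.0098 over 1349 entries). The other names of the sequence gave 0.0098 or 0.0080, so that 10 of 10 tested names, which are 1 sequence, passed. Among all entries 58.9% passed the same test, and a difference among these cultivars was therefore common. An exact permutation test over the 12 libraries, which uses this sequence alone, gave p = 0.0036 and 0.011 after adjustment over the 3 sequences tested that way.

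Longshu No.7 stood lowest, and Black kingkong and Red beauty differed most from it. In Black kingkong against Longshu No.7 stu-miR395a had 47 counts against 4 and was higher by 3.34 on the log2 scale (SE 0.84, 95% interval 1.52 to 5.15, edgeR adjusted p = 0.0083). Across all entries 34.3% were called in this pair, 14.7% of all being higher in Black kingkong, and 47.4% did not overlap between the cultivars in either direction. Red beauty against Longshu No.7 compared 36 counts with 4, a log2 fold change of 3.23 (SE 0.86, interval 1.38 to 5.08, edgeR adjusted p = 0.015). In that pair 24.0% of entries were called, 10.3% of all being higher in Red beauty, and 34.7% did not overlap. In both pairs 3 of 3 libraries of the first cultivar exceeded all of Longshu No.7. The call for Red beauty against Longshu No.7 was lost without Red beauty replicate 2 (3.06, adjusted p = 0.057) or without Longshu No.7 replicate 2 (2.70, adjusted p = 0.055). Without Longshu No.7 replicate 1, which held 3 of the 4 counts, the log2 fold changes were 4.32 for Black kingkong and 4.21 for Red beauty.

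In Black kingkong against LK99 a single count decided whether a name of the main sequence passed. The 10 names of the main sequence were not counted alike: stu-miR395a, b, c, e and g had 10 counts in LK99 replicate 1, and stu-miR395d, f, h, i and j had 9, with all other libraries equal. In Black kingkong against LK99 stu-miR395a had 47 counts against 15 and did not pass (log2 fold change 1.82, SE 0.68, interval 0.36 to 3.28, edgeR adjusted p = 0.057). The same sequence under the name stu-miR395d had 47 counts against 14 and passed (1.91, SE 0.67, interval 0.46 to 3.36, adjusted p = 0.046). Thus 5 of 10 names were called higher, where 12.5% of all entries were called higher and 31.2% were called in either direction. Since all the names are 1 sequence, that count is not evidence from 5 miRNAs. The libraries of the pair did not overlap for stu-miR395a, as was the case for 49.5% of all entries. Without LK99 replicate 1, which held 10 of the 15 counts, stu-miR395a had a log2 fold change of 2.69 (adjusted p = 0.037). It also passed without Longshu No.7 replicate 2 (1.86, adjusted p = 0.047) or replicate 3 (1.77, adjusted p = 0.049), although neither belongs to the pair. Without LK99 replicate 3, which had 0 counts, it stood at 1.13 (adjusted p = 0.14).

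In Red beauty against LK99 the log2 fold change of stu-miR395a was 1.71 (SE 0.69, interval 0.22 to 3.20, edgeR adjusted p = 0.074), with 36 counts against 15 and no overlap between the libraries on the TMM scale. None of the 10 names passed here, with adjusted p = 0.059 for stu-miR395d, while 33.5% of all entries passed in either direction and 48.3% did not overlap. It passed without LK99 replicate 1 (2.50, adjusted p = 0.044). Without LK99 replicate 3 the value was 1.02 (adjusted p = 0.18).

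Neither of the remaining pairs passed. In Longshu No.7 against LK99, with 4 counts against 15, the log2 fold change was -1.52 (SE 0.96, interval -3.60 to 0.56, edgeR adjusted p = 0.31), and the libraries overlapped through the 0 of LK99 replicate 3. Among all entries 18.3% passed in this pair. In Black kingkong against Red beauty, with 47 counts against 36, it was 0.11 (SE 0.61, interval -1.21 to 1.43, adjusted p = 0.93), against 42.1% of entries that passed. That interval still holds differences of more than 1 log2 unit in either direction. The contrasts with LK99 share the same 3 LK99 libraries, and those with Longshu No.7 the same 3 Longshu No.7 libraries.

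**Figure D2:**
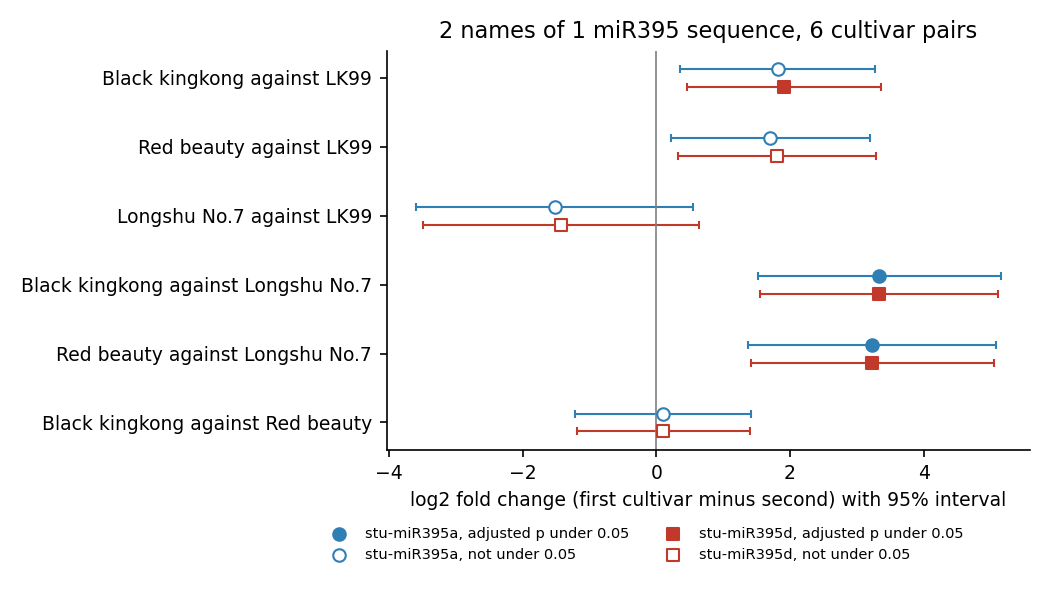
Log2 fold changes of stu-miR395a and stu-miR395d, 2 names of the same sequence, in the 6 pairs of cultivars with 95% intervals; filled symbols have an adjusted p under 0.05. The names differ by 1 count in LK99 replicate 1, and in Black kingkong against LK99 stu-miR395d is filled while stu-miR395a is open.

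**Figure D3:**
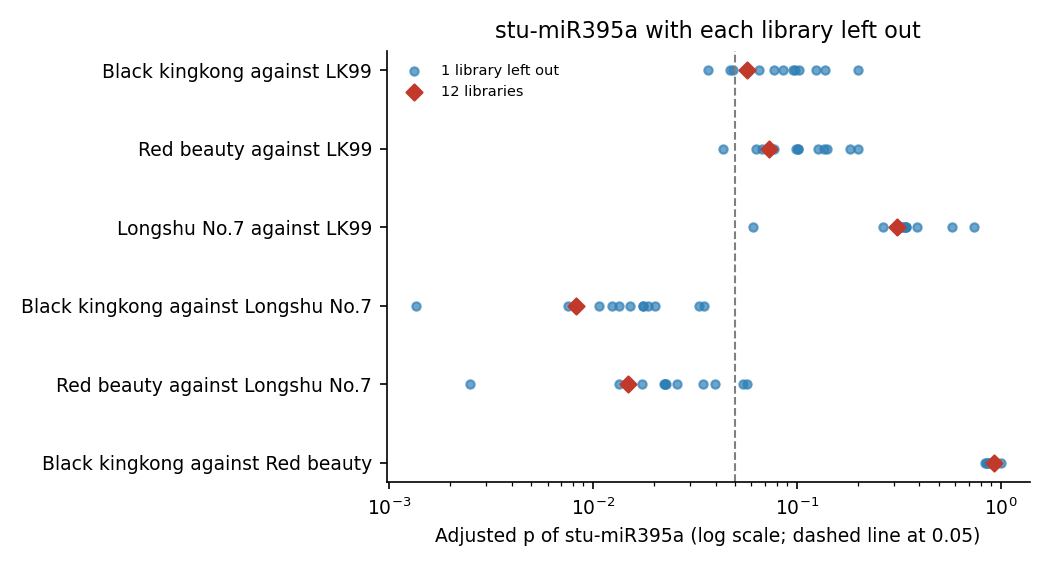
Adjusted p of stu-miR395a (log axis) in each pair with all 12 libraries (diamonds) and with each library left out in turn (points); the dashed line is the threshold of 0.05. In Black kingkong against Longshu No.7 all points stay left of the line, up to 0.035, whereas in Black kingkong against LK99 they run from 0.037 to 0.20.

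Scaling bears on the contrasts with LK99, whose TMM factors averaged 1.24, while the means of the other cultivars were 0.872 to 0.986. With library size alone, the median log2 fold change over all entries moved by -0.33 in Black kingkong against LK99 and by -0.51 in Red beauty against LK99. The values of stu-miR395a became 1.45 (adjusted p = 0.14) and 1.18 (adjusted p = 0.24) in those pairs, in the same direction. Libraries also differed in how closely they matched. Across entries, Pearson's r of log2 CPM between libraries of a cultivar was 0.960 to 0.968 in Black kingkong and 0.949 to 0.961 in Red beauty. In Longshu No.7 it was 0.965 between replicates 1 and 2 and at most 0.842 with replicate 3, and in LK99 it was 0.958 between replicates 1 and 2 and at most 0.911 with replicate 3. Without replicate 3 of both, the contrasts with Longshu No.7 were as large, at 3.32 for Black kingkong (adjusted p = 0.0011) and 3.21 for Red beauty (adjusted p = 0.0019), while Black kingkong against LK99 was 1.12 (adjusted p = 0.098).

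The rarer members were under the filter and were not among the 1349 entries tested. With no filter, over 7827 entries, neither miR395-x nor miR395-y passed the F-test (edgeR adjusted p = 0.24 and 0.15), and their lowest adjusted p in a pair was 0.13 and 0.15. The sequence with the complement of the seed, miR395-x, had 2, 9 and 5 counts in Black kingkong, 2, 5 and 6 in Red beauty, 1, 0 and 2 in Longshu No.7 and 8, 1 and 0 in LK99. Its libraries overlapped between all pairs of cultivars, and an exact permutation test over the 12 libraries found no difference at the threshold (p = 0.28, and 0.28 after adjustment over 3 sequences). Black kingkong against Longshu No.7 had a ratio of 4.87 (95% counting interval 1.40 to 26.1), from 16 counts against 3. Red beauty against Longshu No.7 had a ratio of 4.78 (1.31 to 26.1), from 13 counts against 3. Those intervals ignore the spread between libraries. Per 100 counts of stu-miR395a, Black kingkong had 34.0 of miR395-x and Red beauty 36.1, while Longshu No.7 had 75.0 and LK99 60.0, and the last pair of values rest on 3 and 9 counts of miR395-x.

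The near copy miR395-y had 1, 2 and 3 counts in Black kingkong, 2, 3 and 1 in Red beauty, 0 in each library of Longshu No.7 and 1, 0 and 0 in LK99. Every Black kingkong and Red beauty library held it, as did LK99 replicate 1 alone among the remaining 6. An exact permutation test over the libraries gave p = 0.042, and 0.062 after adjustment over 3 sequences. It averaged 0.314 ± 0.190 CPM in Black kingkong and 0.364 ± 0.196 CPM in Red beauty (SD, n = 3 each), and the limit of 3 counts over the cultivar is 0.164 CPM in Longshu No.7. The counts of miR395-z, 3 in all, came from LK99 replicate 2, and the other 11 libraries had 0. In LK99 replicate 3 and Longshu No.7 replicate 2 all 4 sequences were at 0 counts, at depths of 6548428 and 5866873 counts.

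**Figure D4:**
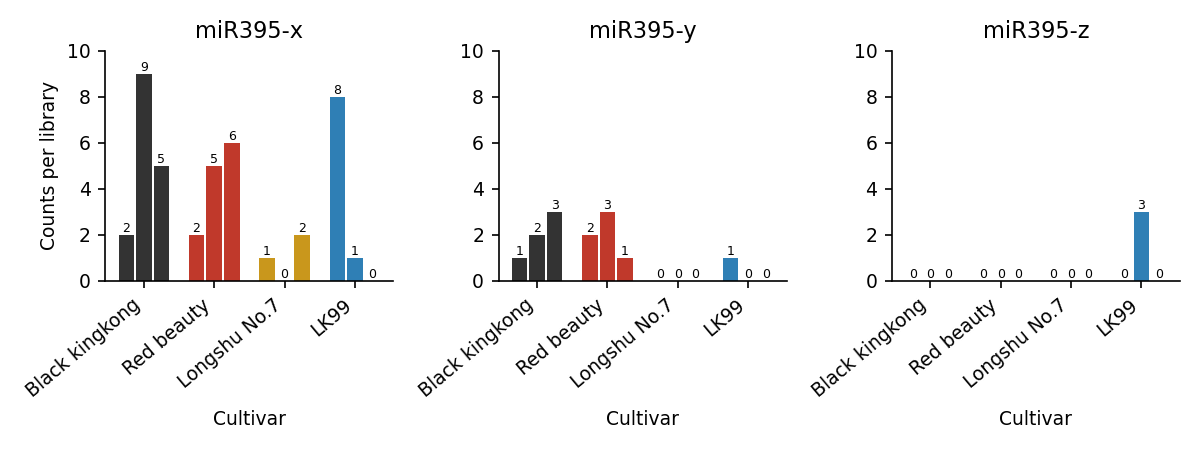
Counts of miR395-x, miR395-y and miR395-z in each library (bars, replicates 1 to 3 from left to right within a cultivar), on 1 common axis. miR395-x reaches 9 counts in Black kingkong replicate 2 and 8 in LK99 replicate 1, miR395-y reaches 3, and miR395-z appears in LK99 replicate 2 alone.

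Other nutrient miRNAs were set beside miR395. The list held the phosphate families miR399, which targets a ubiquitin-conjugating enzyme that restrains phosphate uptake, miR827, which targets SPX-domain proteins, and miR2111, which targets F-box proteins in Arabidopsis and Lotus, and the family miR169, which targets NF-YA transcription factors. It had 50 entries, of which 14 passed the filter with 9 distinct sequences. In the F-test among cultivars 4 of 14 passed: stu-miR827-3p, stu-miR827-5p, miR2111-x and stu-miR169f-3p, against the 58.9% of all entries. Counted by distinct sequence these were 4 of 9, where 581 of 1003 passed over the whole table with 1 row per distinct sequence. The names stu-miR399j-3p to stu-miR399o-3p are the same sequence, and none of them passed (F-test adjusted p = 0.27). In Black kingkong against Longshu No.7, 2 of 14 were higher and 3 lower, where 14.7% and 19.6% of all entries were, with a median log2 fold change of 1.97 in the list and -0.14 over all entries. The higher were stu-miR169f-3p, at 10.9 ± 2.78 CPM in Black kingkong and 2.37 ± 0.29 in Longshu No.7 (log2 fold change 2.18, edgeR adjusted p = 0.0017), and miR399-y, at 18.0 ± 6.79 and 5.30 ± 1.99 CPM in the same order (1.76, adjusted p = 0.043). Lower were stu-miR827-3p, at 20.5 ± 3.05 in Black kingkong against 86.1 ± 43.3 CPM in Longshu No.7 (-2.07, adjusted p = 0.0013), its other arm stu-miR827-5p (-2.34, adjusted p = 0.0043) and miR827-y (-1.96, adjusted p = 0.041). Of these, miR399-y and miR827-y had not passed the F-test among cultivars (adjusted p = 0.053 and 0.11).

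Red beauty against Longshu No.7 had 0 of 14 list entries higher and 1 lower, stu-miR827-3p (-1.30, edgeR adjusted p = 0.025), where 10.3% and 13.7% of all entries were, with a list median of 0.99 against -0.06 over all entries. Against LK99, Black kingkong had 0 of 14 higher and 2 lower, stu-miR827-3p (-1.40, adjusted p = 0.014) and miR2111-x (-2.79, adjusted p = 0.0076), where 12.5% and 18.8% of all entries were, with a list median of 0.11 against -0.06. Red beauty against LK99 had 0 higher and 2 lower, miR2111-x (-4.02, adjusted p = 0.0019) and stu-miR169f-3p (-2.24, adjusted p = 0.0013), where 14.3% and 19.2% of all entries were, with a list median of -0.15 against 0.00 over all entries. Longshu No.7 against LK99 had 1 higher, stu-miR827-5p (1.76, adjusted p = 0.022), and 2 lower, stu-miR169f-3p (-2.19, adjusted p = 0.0027) and miR399-y (-2.13, adjusted p = 0.030), where 8.23% and 10.1% of all entries were, with a list median of -2.10 against 0.02. Black kingkong against Red beauty had 1 higher, stu-miR169f-3p (2.23, adjusted p = 0.0011), and 1 lower, stu-miR399i-3p (-2.09, adjusted p = 0.026), where 20.3% and 21.8% of all entries were, with a list median of 0.37 against 0. The medians lean on miR399, since 6 of the 14 entries are names of 1 miR399 sequence, stu-miR399j-3p to stu-miR399o-3p. Of the entries called in these pairs, miR399-y and stu-miR399i-3p had not passed the F-test among cultivars (adjusted p = 0.053 and 0.085).

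Summed over distinct sequences, the families took different orders among the cultivars. For miR827 Black kingkong averaged 22.0 ± 3.77 CPM and Red beauty 38.6 ± 8.32, while Longshu No.7 averaged 93.2 ± 46.4 and LK99 56.8 ± 11.2, an order of means that is the reverse of that of miR395. The miR827 sums of Longshu No.7 libraries spanned 40.1 to 126 CPM. They overlapped those of LK99 (44.8 to 66.9) and of Red beauty (30.7 to 47.3), so the order holds for the means alone. miR2111 averaged 0.584 ± 0.332 CPM in Black kingkong and 0.248 ± 0.281 in Red beauty, with 1.47 ± 0.54 for Longshu No.7 and its highest mean, 4.18 ± 2.65, for LK99. For miR399 Black kingkong stood at 27.7 ± 11.8 and Red beauty at 25.5 ± 21.0, with Longshu No.7 at 10.4 ± 3.08 and LK99 at 34.4 ± 17.7, and Red beauty libraries overlapped those of LK99. miR169 reached 20.9 ± 5.54 in Black kingkong and 17.8 ± 5.18 in LK99, with 8.79 ± 2.45 in Red beauty and 7.41 ± 0.79 in Longshu No.7. For the miR395 sum, the lowest Black kingkong and highest LK99 library stood at almost the same level (both 2.30 CPM), and with library size alone the order turned, at 2.57 in Black kingkong against 3.15 in LK99. The lowest Red beauty library, at 2.24, was then also under that LK99 library. These sums were described and not tested.

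**Figure D5:**
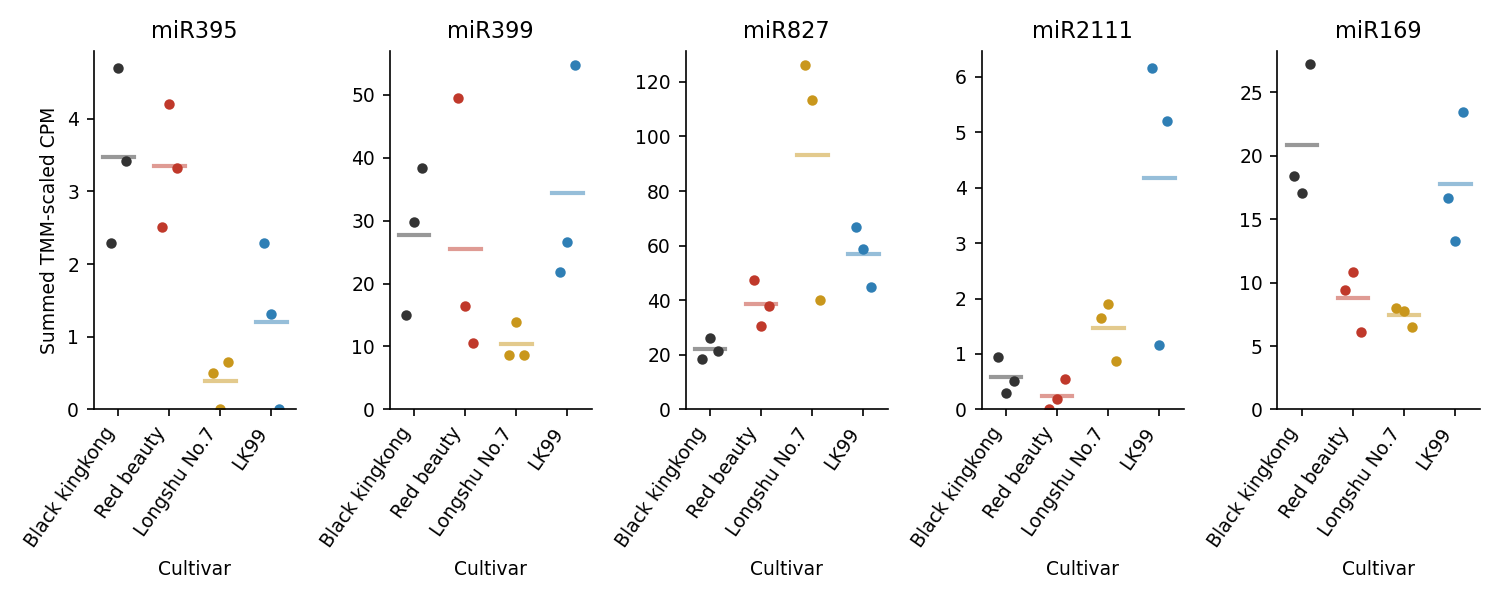
Summed level of each nutrient family over its distinct sequences (TMM-scaled CPM, a separate axis for each family) in the 12 libraries; bars are means of 3. miR395 has its highest means in Black kingkong and Red beauty, but the highest LK99 library is about level with the lowest of Black kingkong (both 2.30 CPM). By contrast, miR827 has its highest mean, 93.2 CPM, in Longshu No.7 and its lowest, 22.0 CPM, in Black kingkong.

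The miRNAs whose levels followed stu-miR395a most closely were ranked by Pearson's r of log2 CPM over the 12 libraries, among 192 distinct sequences with a mean of at least 10 CPM. The libraries come in threes from a cultivar and share their scaling, and r is given as a description. The closest was stu-miR166d-3p, whose family regulates HD-ZIP III transcription factors (r = 0.84, Spearman's rho = 0.81). Its level was 1621 ± 145 CPM in Black kingkong and 1497 ± 168.8 in Red beauty, and at 1047 ± 97.3 in Longshu No.7 and 985 ± 114 in LK99, a far smaller range than that of stu-miR395a. Next was stu-miR6022 (r = 0.79, rho = 0.81), at 259 ± 34.4, 391 ± 33.7, 168.8 ± 5.58 and 227 ± 27.7 CPM in the same order of cultivars. Within cultivars, as deviations from the cultivar means, r was 0.54 for stu-miR166d-3p and 0.68 for stu-miR6022. Without the 2 libraries farthest from the median of stu-miR395a, it was 0.74 and 0.82.

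The other three were a predicted miRNA of 21 nt (r = 0.73, rho = 0.60), stu-miR166a-5p (r = 0.70, rho = 0.67) and a predicted miRNA of 22 nt (r = 0.69, rho = 0.72). Without the same 2 libraries these values of r were 0.41, 0.63 and 0.55, and within cultivars they were 0.43, -0.040 and 0.20. The sequences of the 5 are given with their bases 2 to 8 in capitals, to show that none carries the seed of stu-miR395a.
stu-miR166d-3p: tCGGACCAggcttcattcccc
stu-miR6022: tGGAAGGGagaatatccagga
predicted, 21 nt: tTCAATGGcggattttagatc
stu-miR166a-5p: gGAATGTTgtctggctcgagg
predicted, 22 nt: tAATCCAAcggattccttcgac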

How the data were processed

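Small RNA libraries of 4 cultivars (3 each) were read from 1 table of mature miRNA entries. Per the file headers, it holds whole-number counts without normalization, while no source used here names the aligner, the counting program or the build. A deposited column headed TPM was treated as a score and not used: its divisor in Black kingkong replicate 1 was 11.9 times that library's total count. A deposited length column holds the length in nt (other). Counts were tested with edgeR 4.0.16 (limma 3.58.1, R 4.3.3; quasi-likelihood F-test) in 1 fit over 12 libraries and a term for each cultivar. The filterByExpr filter (minimum count 10, minimum total 15) kept 1349 entries, holding 99.8% to 99.9% of the counts. Library sizes were scaled by TMM, and p-values were adjusted by Benjamini-Hochberg over all tested entries, with a threshold of 0.05. Entries of 1 sequence were represented by the name with the most counts. Named were all miR395 sequences, the entries sharing the seed or aligning with at most 3 mismatches, and the 5 most alike in r (prior count 1). The family, list and tests were chosen with earlier results of these data known. The fit was tested on simulated data. Alternatives included DESeq2 1.42.0, other scalings and filters, each library left out and a replicate block. Intervals of 95% are exact for counts and their ratios (for 0 counts, up to the limit of 3), and from the fit's SE and degrees of freedom for log2 fold changes.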

Additional observations from a re-analysis of the deposited data

How the results depend on the processing

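The calls of stu-miR395a among the 4 cultivars and in Black kingkong against Longshu No.7 held under all alternatives that gave a value (adjusted p of 0.000085 to 0.028 and 0.00016 to 0.035). With libraries left out, singly or replicate 3 of both Longshu No.7 and LK99 together, the log2 fold change ranged from 2.89 to 4.32 in that pair, from 2.70 to 4.21 in Red beauty against Longshu No.7, from 1.12 to 2.69 in Black kingkong against LK99, from 1.00 to 2.50 in Red beauty against LK99 and from -2.54 to -0.70 in Longshu No.7 against LK99. In Black kingkong against LK99 stu-miR395a passed with no filter (1.76, adjusted p = 0.047), and the call of stu-miR395d was lost in 14 of 20 alternatives. The sign in Black kingkong against Red beauty (-0.13 to 0.26 with libraries left out) reversed without Black kingkong replicate 2 (-0.13) and without Red beauty replicate 1 (-0.036), for both names. The cause was not tested. With at least 10 CPM in 3 libraries no miR395 entry was left, and with only the libraries of the pair the sequence was under the filter in Longshu No.7 against LK99 and Red beauty against Longshu No.7. Same-numbered libraries of different cultivars showed no strong shared deviation over all entries (r from -0.077 to 0.134). The labels name no shared block, and these values cannot show that there was none. The replicate block changed no call of stu-miR395a (1.88, adjusted p = 0.063, in Black kingkong against LK99, and 3.38 and 3.29 against Longshu No.7). With the block stu-miR395d lost its call in Black kingkong against LK99 (1.96, adjusted p = 0.053). Leaving out replicate 3 of both Longshu No.7 and LK99, and the permutation test, were chosen after seeing the data.

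The number of nutrition entries past the F-test was 4, but 12 with no filter, 2 with at least 10 CPM, and 4 to 13 with libraries left out (7 without Longshu No.7 replicate 3, 13 without replicate 3 of both). Names of the same sequence are counted separately in these numbers, and the list entries tested in each alternative are not given. Beside them, 1095 of 1708 entries of the whole table passed without Longshu No.7 replicate 3, and 1091 of 1619 without replicate 3 of both. Over all entries the F-test called 794 of 1349 tested, and 1903 of 7827 with no filter or 236 of 332 with at least 10 CPM. The same numbers were tested in each pair under these settings, so the raw counts of calls are not shares. In the pairs, with no filter and with at least 10 CPM in turn, the calls were 707 and 116 for Black kingkong against LK99 (421 in the main test), 950 and 153 for Red beauty against LK99 (452), 501 and 102 for Longshu No.7 against LK99 (247), 831 and 140 for Black kingkong against Longshu No.7 (463), 661 and 83 for Red beauty against Longshu No.7 (324), and 1087 and 183 for Black kingkong against Red beauty (568). Without Longshu No.7 replicate 3 they were 680 for Red beauty against LK99 and 381 for Longshu No.7 against LK99, of 1708 tested. Without replicate 3 of both they were 414 for Longshu No.7 against LK99 and 529 for Red beauty against Longshu No.7, of 1619 tested. With only the libraries of the pair they were 111 of 935 and 203 of 869 in the same order. At 0 to 21 counts per library, counting error alone leaves wide intervals on every miR395 level.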

Other observations

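The unequal counting of the miR395 names was not confined to this family. In the table, 1072 distinct sequences stood under more than 1 name, and for 94 of them the names had unequal counts. Of the 183 with more than 1 tested name, names of 1 sequence fell on both sides of the adjusted p threshold for 2 sequences in Black kingkong against LK99, 5 in Red beauty against LK99, 2 in Longshu No.7 against LK99, 3 in Black kingkong against Longshu No.7, 2 in Red beauty against Longshu No.7 and 1 in Black kingkong against Red beauty.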
